A study of Mus musculus with 16 samples.

Results

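Col3a1, Col5a2, Col12a1, Bgn, Lox and Loxl1 are 6 genes of the collagen network that surrounds muscle fibres. They were taken by symbol from a table of 831 genes, and all 6 were found in it. The table comes from RNA sequencing of whole tibialis anterior, a muscle of the lower hind leg, from mice at postnatal day 30. There were 4 groups of 4 libraries: mdx/miR-133b-/- mice, which carry both mutations, mdx mice, miR-133b-/- mice, and Control mice, which are wild type. mdx is a mutation of the dystrophin gene and the usual mouse model of Duchenne muscular dystrophy, and miR-133b is a muscle-enriched microRNA. Dystrophic mdx muscle passes through cycles of fibre loss and regeneration at about this age. The labels give neither the strain, nor the sex, nor the construction of the miR-133b allele. The study asks whether loss of miR-133b alters the dystrophic muscle, so the comparison of mdx/miR-133b-/- with mdx muscle addresses its main question.

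Fibrillar collagens are secreted as rod-like helices that line up into banded fibrils outside the cell. Type III collagen, the product of Col3a1, forms fibrils with type I collagen, type V collagen (Col5a2 encodes one of its chains) governs how fibrils start and how thick they grow, and type XII collagen (Col12a1) sits on the fibril surface. Biglycan (Bgn) is a small leucine-rich proteoglycan that binds collagen. Lysyl oxidase (Lox) and lysyl oxidase-like 1 (Loxl1) oxidise lysine side chains so that neighbouring collagen and elastin molecules become covalently crosslinked, and in mice Loxl1 is known mainly for elastic fibres. In skeletal muscle these proteins are made largely by fibroblasts and fibro-adipogenic progenitors, and they accumulate when muscle becomes fibrotic.

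The mature microRNA deleted in the miR-133b-/- groups is shown because its seed is what a direct target would have to match. It lies on GRCm38.p6 chr1:20682834-20682855, plus strand, with seed bases 2 to 8 in capitals.

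mmu-miR-133b-3p: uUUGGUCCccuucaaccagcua

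The seed match GGACCAA occurred in the 3′ UTR of the longest coding transcript of 0 of the 6 genes. It occurred in 68 of the 774 listed genes with an annotated 3′ UTR, which is 8.79%. No match says only that these letters are not in that stretch of the transcript. Shorter matches and other stretches were not searched, so direct targeting was not tested.

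All 6 genes rose in mdx muscle, so the rise does not set any of them apart for a look at promoters. How many of the 6 genes the RefSeq promoter table (build GRCm38.p6) holds was not established here. The 2 promoters taken from it, those of Col3a1 and Bgn, are shown. Each runs from 250 bases before the gene start to 50 bases after it, on the plus strand, at chr1:45311288-45311587 for Col3a1 and chrX:73483351-73483650 for Bgn. Capitals mark matches to CAGAC (Smad), TGANTCA (AP-1) or CATTCC (TEAD), searched on both strands.

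Col3a1 promoter: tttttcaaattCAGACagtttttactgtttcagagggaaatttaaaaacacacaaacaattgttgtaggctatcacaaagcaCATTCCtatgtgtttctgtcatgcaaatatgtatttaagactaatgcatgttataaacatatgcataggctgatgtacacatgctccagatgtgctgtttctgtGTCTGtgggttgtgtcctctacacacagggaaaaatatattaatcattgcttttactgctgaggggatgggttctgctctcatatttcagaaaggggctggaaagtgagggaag

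Bgn promoter: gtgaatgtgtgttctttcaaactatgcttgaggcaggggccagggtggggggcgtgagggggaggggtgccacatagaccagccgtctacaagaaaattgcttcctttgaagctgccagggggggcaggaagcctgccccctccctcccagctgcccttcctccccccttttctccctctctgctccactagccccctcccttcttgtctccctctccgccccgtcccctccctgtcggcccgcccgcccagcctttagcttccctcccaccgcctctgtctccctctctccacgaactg

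The Col3a1 promoter held CAGAC at position -239 and, on the minus strand (read as GTCTG above), at -64, and CATTCC at -168, counted from the gene start. The Bgn promoter held none of the 3 motifs. Among 32851 promoters of the same length, CAGAC occurred in 49.6%, CATTCC in 14.7% and TGANTCA in 7.81%, so the matches in Col3a1 are common ones. The 2 windows also differed in base composition: 37.7% of the Col3a1 bases and 63.7% of the Bgn bases were G or C, against a median of 52.7%. These matches are descriptions of the letters and not measured binding sites.

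The deposited values were read counts scaled by 1 factor per library (0.459 to 1), called scaled reads here, and the reads in the 831 listed genes came to between 2356990 and 6000033 per library. The table was a selected one: every listed gene differed by at least 1.72-fold between the mdx/miR-133b-/- and miR-133b-/- groups, so shares of called genes are high and that contrast is described without a test. Other comparisons that use either group rest on libraries that took part in this selection. Their differences and p-values may be overstated to an unknown extent. Groups were taken from the sample titles. The description field of 14 of the 16 libraries carries the code of another library, and Dmd, Utrn and Mir133b, which could check the genotypes directly, are not analysed here. Sums of markers did follow the titles for the mdx mutation: regenerating fibre markers came to 809 to 7465 scaled reads in mdx/miR-133b-/- and 1659 to 6043 in mdx libraries, against 107 to 275 in miR-133b-/- and 203 to 304 in Control libraries. The ranges overlapped between mdx/miR-133b-/- and mdx, and between miR-133b-/- and Control. They therefore do not check the miR-133b genotype, and the markers come from the same selected table. All 24 pairs of libraries within groups differed by far more than sampling noise, with a chi-square per degree of freedom of at least 38.4. Nothing in the labels ties each library to its own mouse, and p-values then reflect the spread among the sequenced libraries, which may be technical. Differences are log2 differences of (scaled reads + 1) from limma fitted to all 831 genes over the 16 libraries, and a gene was called at a Benjamini-Hochberg adjusted p under 0.05. In whole muscle, fewer cells of a type and less RNA per cell cannot be told apart.

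All 6 genes rose in mdx muscle relative to Control muscle, by 1.89-fold to 2.56-fold, and for each of them the 4 mdx libraries lay above the 4 Control libraries. In the same comparison 44.5% of the 831 listed genes were called higher, and 46.2% were higher without overlap. The median log2 difference of the 6 genes was 1.25, against 0.44 over all listed genes. That second median mixes genes that rose with genes that fell, since 504 of the 831 were higher in sign. Counted from the highest difference, the 6 genes ranked 181 to 287 of 831, so their rise was not extreme among the genes that rose. Scaled reads were thus higher in mdx muscle for the fibril-forming collagens, for the surface collagen and proteoglycan, and for both crosslinking enzymes. Such values are relative and do not give amounts of RNA in the muscle.

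Among the fibrillar collagens, Col3a1 had 31996, 29943, 30084 and 29863 scaled reads in the mdx libraries, against 10225, 18458, 18910.4 and 18909 in the Control libraries. The mdx libraries lay close together, while 1 Control library lay far below the other 3. The difference was 0.92 (SE 0.25, adjusted p = 0.00416). Col5a2 had 2860.3, 3311, 3132 and 3188 scaled reads in the mdx libraries, against 949.7, 1768, 1661 and 1304 in the Control libraries. The groups did not overlap, and the difference was 1.17 (SE 0.22, adjusted p = 0.000306). Col3a1 and Col5a2 are neighbours on chromosome 1 (GRCm38, 45311538 to 45349706 on the plus strand and 45374321 to 45503282 on the minus strand), with 24614 bases between them. Exons of Col3a1 overlap a miRNA gene model on the same strand, Gm47302, and how the authors counted reads shared by both models is not known, which also touches the ratios to Col3a1 given further on.

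Col12a1 (chromosome 9, 79598991 to 79718831, minus strand), the fibril-associated collagen, had 383, 335, 359 and 519 scaled reads in the mdx libraries, against 87.9, 178, 200.4 and 175 in the Control libraries. It had the highest fold of the 6 genes, with a difference of 1.36 (SE 0.28, adjusted p = 0.000509). Relative to Col3a1 in the same library, a ratio that no scaling factor can change, Col12a1 came to 1.12% to 1.74% in mdx and 0.860% to 1.06% in Control libraries. These ranges did not overlap. In the miR-133b-/- libraries, which lack the mdx mutation, the ratio ran from 0.802% to 1.81% and so spanned the mdx range. Bgn (chromosome X, 73483602 to 73495933, plus strand) had 3578, 3944, 4216 and 4161 scaled reads in the mdx libraries, against 1327, 1721, 1980.2 and 1519.6 in the Control libraries. Its lowest mdx library stood well above its highest Control library, with a difference of 1.29 (SE 0.28, adjusted p = 0.000922).

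Lox (chromosome 18, 52516067 to 52529867, minus strand), which crosslinks collagen and elastin, had 560.3, 437, 731 and 427 scaled reads in the mdx libraries, against 174, 249.5, 290.3 and 216 in the Control libraries. Every mdx library exceeded every Control library, with a difference of 1.20 (SE 0.34, adjusted p = 0.00492). Exons of Lox overlap those of an antisense gene model, AC161119.1, and the use of strand in counting is not given in the sources used here, so the Lox values are uncertain to that extent. Loxl1 (chromosome 9, 58287738 to 58313186, minus strand), its paralog, had 161, 177, 201 and 157 scaled reads in the mdx libraries, against 65.7, 67, 69.5 and 77.6 in the Control libraries. Loxl1 was the least abundant of the 6 in mdx muscle by scaled reads, yet its groups were as clearly apart, with a difference of 1.30 (SE 0.30, adjusted p = 0.00125).

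**Figure D1:**
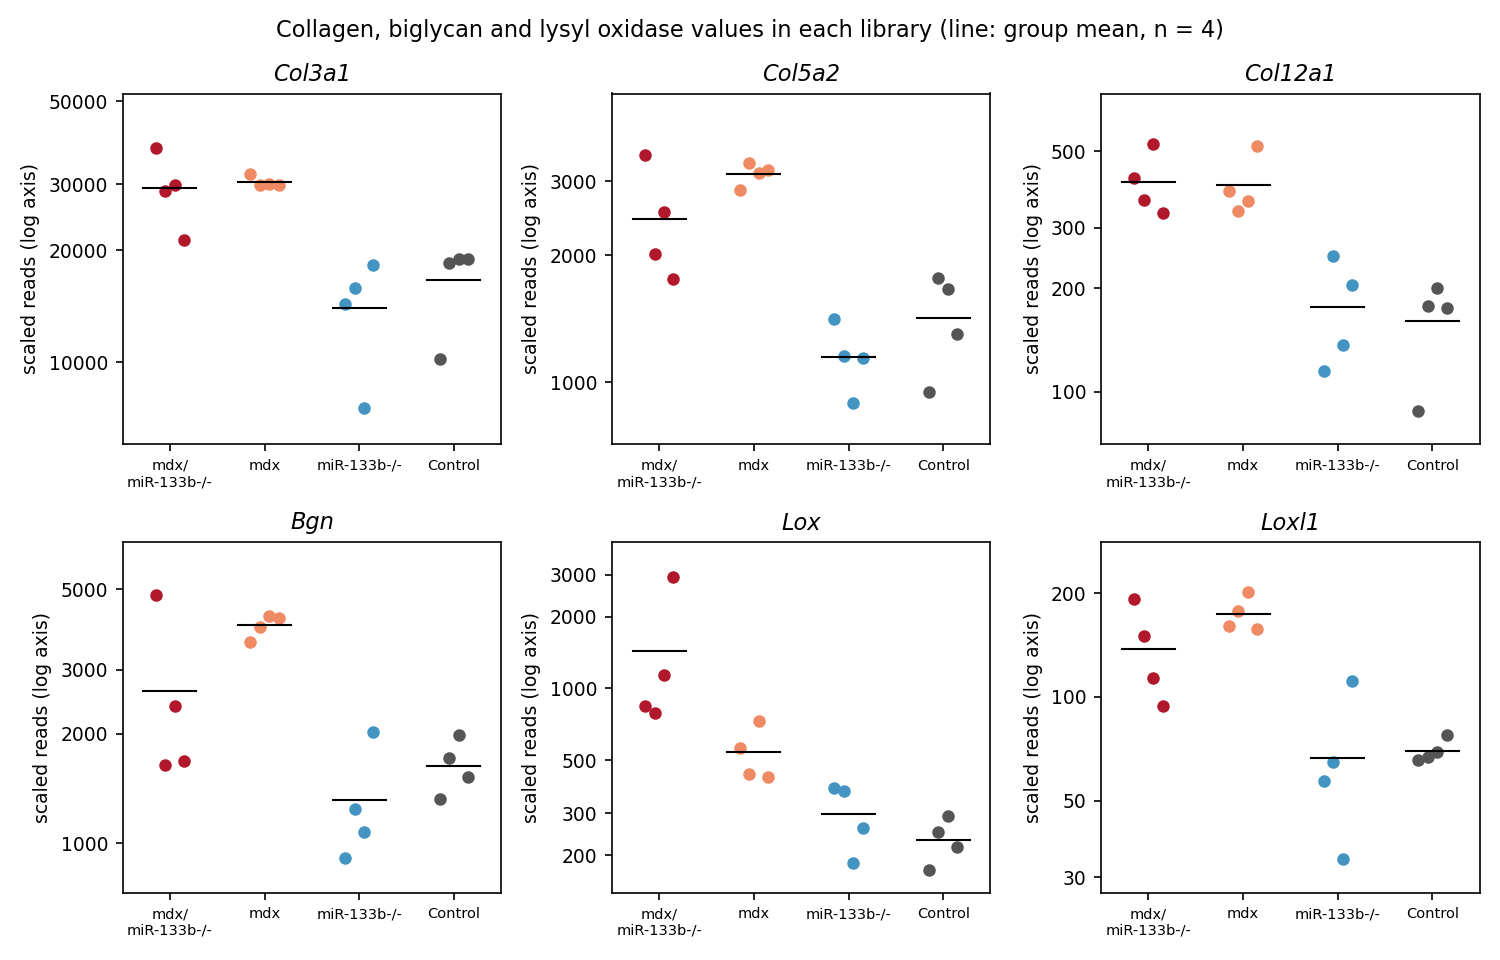
Scaled reads of each of the 6 genes in the 16 libraries, with a line at the group mean; the vertical axis of each panel is logarithmic and the groups run mdx/miR-133b-/-, mdx, miR-133b-/-, Control. All 4 mdx points lie above all 4 Control points in each panel, and the highest point of the Lox panel, at 2937, is a mdx/miR-133b-/- library.

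A trend on GC content and transcript length was removed from the log2 differences between libraries, an alternative added after seeing the data. The 6 differences were then 0.35 to 0.94, and Col3a1 (adjusted p = 0.183) and Lox (adjusted p = 0.117) were no longer called. The correction also gave every library the same mean over the listed genes, so its changes cannot be assigned to GC and length alone. That correction also moved the median over all listed genes to -0.12, and scaling by relative log expression moved it to 0.09. Under that scaling the 6 differences were 0.56 to 1.002 and all 6 genes were still called. Without Control 1, the lowest Control library for each of the 6 genes, the differences were 0.70 to 1.27 and all 6 were called.

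Lox was the single gene of the 6 that passed the test between mdx/miR-133b-/- and mdx muscle, where it rose by 2.32-fold. Its libraries had 842, 792, 1142 and 2937 scaled reads in mdx/miR-133b-/- muscle, against 560.3, 437, 731 and 427 in mdx muscle. The groups did not overlap, though 1 mdx/miR-133b-/- library stood far above the other 3. The log2 difference was 1.22 (SE 0.34, adjusted p = 0.0216), the 12th highest of 831 genes. In this comparison 7.46% of the listed genes were called higher, 12.0% were called lower, and 10.3% were higher without overlap. The mdx/miR-133b-/- libraries also took part in the selection of the table, which may affect these p-values. The call did not hold throughout. Without the mdx/miR-133b-/- library at 2937 the difference was 0.80 (adjusted p = 0.0794), without mdx 2 or mdx 4 it was 1.13 or 1.12 (adjusted p = 0.0506 and 0.0592), and after the GC and length correction it was 0.96 (adjusted p = 0.0669). The 3 mdx/miR-133b-/- libraries below 2937 nevertheless lay above every mdx library.

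The other 5 genes did not pass the test between mdx/miR-133b-/- and mdx muscle. Bgn, the proteoglycan, had 4812, 1647, 2381 and 1681 scaled reads in the mdx/miR-133b-/- libraries, against 3578, 3944, 4216 and 4161 in the mdx libraries. The first mdx/miR-133b-/- library stood above all mdx libraries and the other 3 stood below all of them. The log2 difference was -0.74 (95% interval -1.33 to -0.15, adjusted p = 0.0754). Without mdx/miR-133b-/- 1 it was -1.08 and was called (adjusted p = 0.0041), and with relative log expression scaling it was -0.78 (adjusted p = 0.0426). Leaving out a single library thus gave Bgn a call and took one from Lox.

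For Col5a2 the mdx/miR-133b-/- libraries had 3464, 2019, 2539 and 1757 scaled reads, spread to both sides of the mdx libraries, with a log2 difference of -0.40 (95% interval -0.87 to 0.07, adjusted p = 0.231). Col3a1 had 37514, 28698, 29792 and 21317 scaled reads in mdx/miR-133b-/- muscle, again to both sides of mdx, with a difference of -0.08 (95% interval -0.61 to 0.44, adjusted p = 0.868). Those of Loxl1 and Col12a1 were -0.38 (95% interval -1.002 to 0.24, adjusted p = 0.406) and 0.03 (95% interval -0.55 to 0.61, adjusted p = 0.954). The sign for Col3a1 was positive without mdx/miR-133b-/- 4 (0.06). The sign for Col12a1 was negative with relative log expression scaling (-0.01) and after the GC and length correction (-0.28), and that for Loxl1 was positive after the GC and length correction (0.13). The median over the 6 genes was -0.23, against -0.04 over all listed genes.

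**Figure D2:**
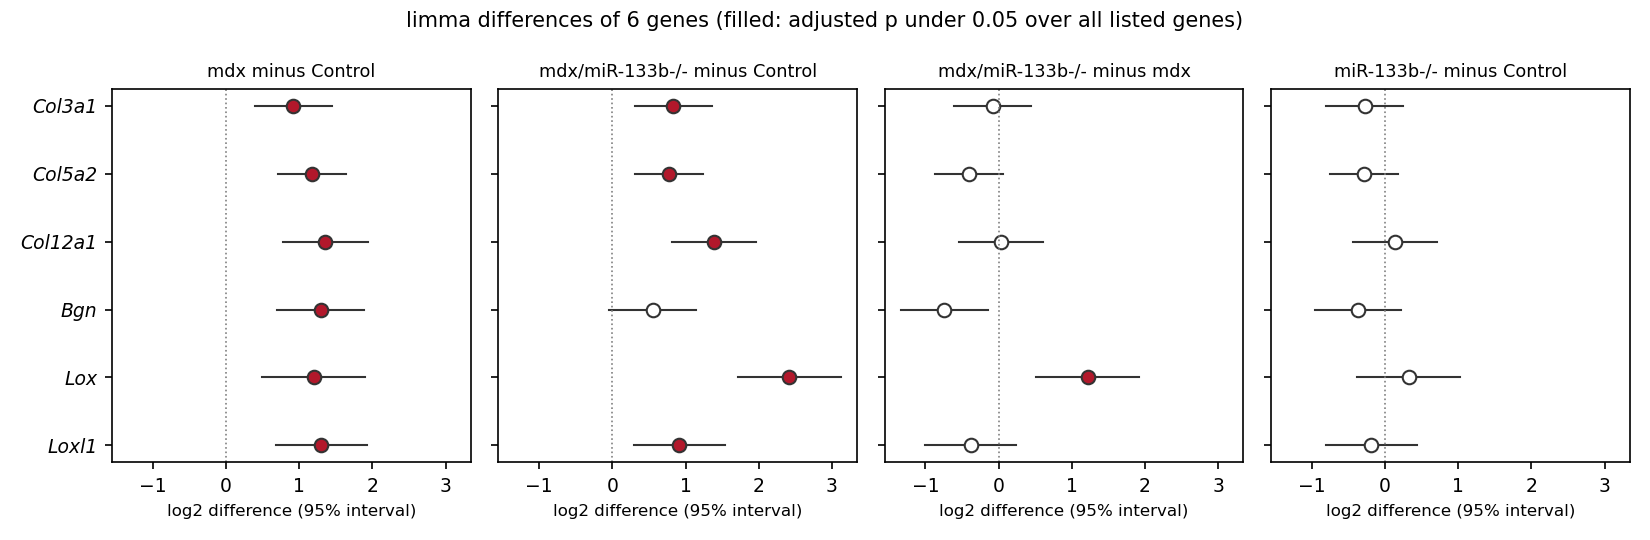
Log2 difference with its 95% interval for each of the 6 genes in 4 comparisons, from limma over all 831 genes; filled points passed an adjusted p of 0.05. The mdx minus Control intervals all lie above 0, and between mdx/miR-133b-/- and mdx the one filled point is Lox, at 1.22.

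Ratios between genes of 1 library do not depend on the scaling factors. Lox came to 2.24%, 2.76%, 3.83% and 13.8% of the Col3a1 reads in the mdx/miR-133b-/- libraries, against 1.75%, 1.46%, 2.43% and 1.43% in the mdx libraries. These overlapped, since 2.24% in mdx/miR-133b-/- 1 was below the highest mdx value. The ratio of Lox to Loxl1 was 4.37, 5.26, 10.04 and 31.2 in the mdx/miR-133b-/- libraries, against 3.49, 2.47, 3.64 and 2.71 in the mdx libraries, without overlap. In the miR-133b-/- libraries that ratio was 6.68, 5.69, 5.46 and 2.34, against 2.64, 3.73, 4.18 and 2.78 in the Control libraries, where the groups overlapped. Bgn came to 12.8%, 5.74%, 7.99% and 7.88% of Col3a1 in the mdx/miR-133b-/- libraries, against 11.2%, 13.2%, 14.0% and 13.9% in the mdx libraries. Here mdx/miR-133b-/- 1 lay within the mdx range and the other 3 below it.

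**Figure D3:**
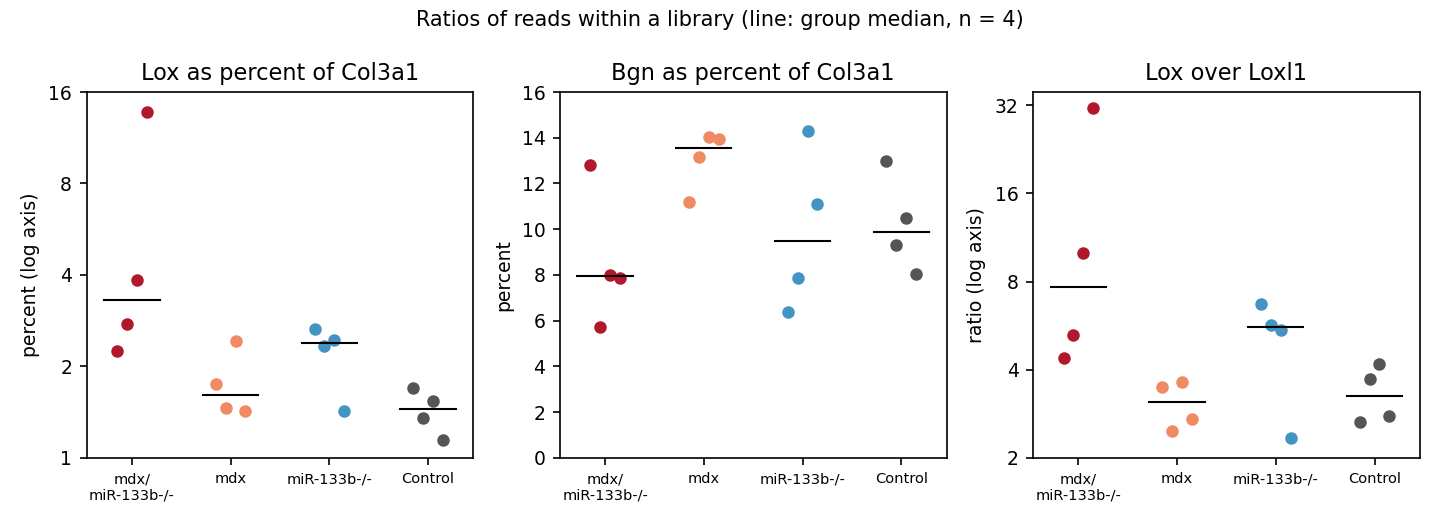
Reads of Lox and of Bgn relative to Col3a1, and of Lox relative to Loxl1, within each of the 16 libraries by group. For Lox over Loxl1 the mdx/miR-133b-/- libraries lie at 4.37 to 31.2, above all mdx libraries.

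Against Control, which is also the group set against mdx above, 5 of the 6 genes rose in mdx/miR-133b-/- muscle, and 4 of them did so without overlap. Among all listed genes 54.3% were called higher and 44.9% were higher without overlap, and the median difference was 0.88 for the 6 genes and 0.73 over all listed genes. The median of the 6 genes thus lay close to that of the table. Because the mdx/miR-133b-/- libraries took part in the selection of the table, the p-values below may be too small. Lox was 5.34-fold higher, with a log2 difference of 2.42 (95% interval 1.71 to 3.12, adjusted p = 1.33e-05), and one of 1.996 without the library at 2937 (adjusted p = 2.4e-05). Col12a1 had 418, 359.8, 526 and 329.8 scaled reads in the mdx/miR-133b-/- libraries, against 87.9, 178, 200.4 and 175 in the Control libraries, and was 2.62-fold higher (adjusted p = 0.000235). Loxl1 had 193, 150.4, 114 and 94.1 scaled reads in the mdx/miR-133b-/- libraries, all above the Control libraries, and was 1.89-fold higher (adjusted p = 0.00779). Col3a1 was 1.78-fold higher (adjusted p = 0.00493) and Col5a2 1.71-fold higher (adjusted p = 0.00356), with 1 mdx/miR-133b-/- library of Col5a2 inside the Control range. Bgn was the exception, at 0.55 (95% interval -0.04 to 1.14, adjusted p = 0.0712). It was called without mdx/miR-133b-/- 2 (0.73, adjusted p = 0.0266) or mdx/miR-133b-/- 4 (0.72, adjusted p = 0.0303).

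With relative log expression scaling, Lox and Col12a1 kept their calls between mdx/miR-133b-/- and Control muscle, and Col3a1, Col5a2 and Loxl1 had adjusted p of 0.0866, 0.0944 and 0.0857. After removal of the GC and length trend, Lox (1.51) and Loxl1 (1.07) were called. Over all listed genes the median was 0.33 under relative log expression scaling and 0.08 without the trend. Between the mdx/miR-133b-/- and miR-133b-/- groups, by which the table was selected, the ratio of group means was 2.10 for Col3a1, 2.13 for Col5a2, 2.32 for Col12a1, 2.002 for Bgn, 4.78 for Lox and 2.07 for Loxl1.

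Without the mdx mutation, loss of miR-133b gave no call in limma: 0 of the 6 genes and 0% of the listed genes passed between miR-133b-/- and Control muscle. At an unadjusted p under 0.05 the counts were 0 of 6 and 84 of 831, and limma-voom also called 0. Col3a1 had 14335, 15863, 7543 and 18197 scaled reads in the miR-133b-/- libraries, within or below the Control range. Lox had 381, 369.7, 185 and 259 in the miR-133b-/- libraries, where 2 libraries were above all Control libraries and the other 2 within their range. The log2 difference was 0.33 for Lox (95% interval -0.38 to 1.03, adjusted p = 0.786) and -0.37 for Bgn (95% interval -0.96 to 0.22, adjusted p = 0.709). Those of Col3a1, Col5a2, Col12a1 and Loxl1 were -0.28, -0.28, 0.13 and -0.19, with intervals that include 0. The effect of losing miR-133b in mdx muscle minus that in muscle without the mutation was 0.89 for Lox (SE 0.48, adjusted p = 0.288) and -0.37 to 0.20 for the other 5 genes. No gene of the 6 was called in this interaction, in which 0.963% of the listed genes were called, so a different effect of miR-133b loss on Lox in mdx muscle was not shown.

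Per kilobase of exon, the order of the 6 genes was nearly fixed. Col3a1 ranked first in 16 of 16 libraries, and Bgn, Col5a2, Lox, Loxl1 and Col12a1 followed in that order in nearly all of them. The mean level in mdx muscle was 3104 scaled reads per kilobase for Col3a1, 652 for Bgn, 326 for Col5a2, 113 for Lox, 52.8 for Loxl1 and 26.2 for Col12a1. In mdx/miR-133b-/- muscle Lox averaged 299 per kilobase of exon and Col5a2 255, but per kilobase of the longest coding transcript the means were 301 for Lox and 369 for Col5a2. Lox ranked above Col5a2 in 1 library, mdx/miR-133b-/- 4, with either length. It ranked above Bgn there per kilobase of exon but not of transcript, where Bgn ranked second in all 16 libraries. Loxl1 and Col12a1 are neighbours whose order depends on the length too: with the transcript, Col12a1 was ahead in 4 libraries.

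The spread among replicates differed by group. In mdx muscle the coefficient of variation was 3.35% for Col3a1, 6.09% for Col5a2, 7.28% for Bgn, 11.5% for Loxl1, 20.6% for Col12a1 and 26.3% for Lox. In mdx/miR-133b-/- muscle it was 22.6% for Col3a1, 30.8% for Col5a2, 56.8% for Bgn, 31.5% for Loxl1, 21.2% for Col12a1 and 71.3% for Lox. Col12a1 thus varied about as much in both groups. The range over the 6 genes was 18.5% to 48.4% in miR-133b-/- and 7.64% to 30.9% in Control muscle. For Col3a1, Col5a2, Bgn and, by little, Col12a1 the value in mdx muscle was the lowest of the 4 groups. These spreads were not tested. Single libraries recur in this spread. mdx/miR-133b-/- 1 was the highest of its group for Col3a1, Col5a2, Bgn and Loxl1, and mdx/miR-133b-/- 4 was the lowest for Col3a1, Col5a2, Col12a1 and Loxl1 and the highest for Lox. Control 1 was the lowest of its group for all 6 genes.

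After group means were subtracted, 5 of the 6 genes varied together across the 16 libraries and Lox did not. Pearson's r of these deviations was 0.77 for Col3a1 with Col5a2 and 0.77 for Col3a1 with Loxl1, and 0.30 to 0.77 over the 10 pairs without Lox. Over the 5 pairs with Lox it was -0.25 to 0.07. These are descriptions, since the genes share libraries and scaling factors.

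**Figure D4:**
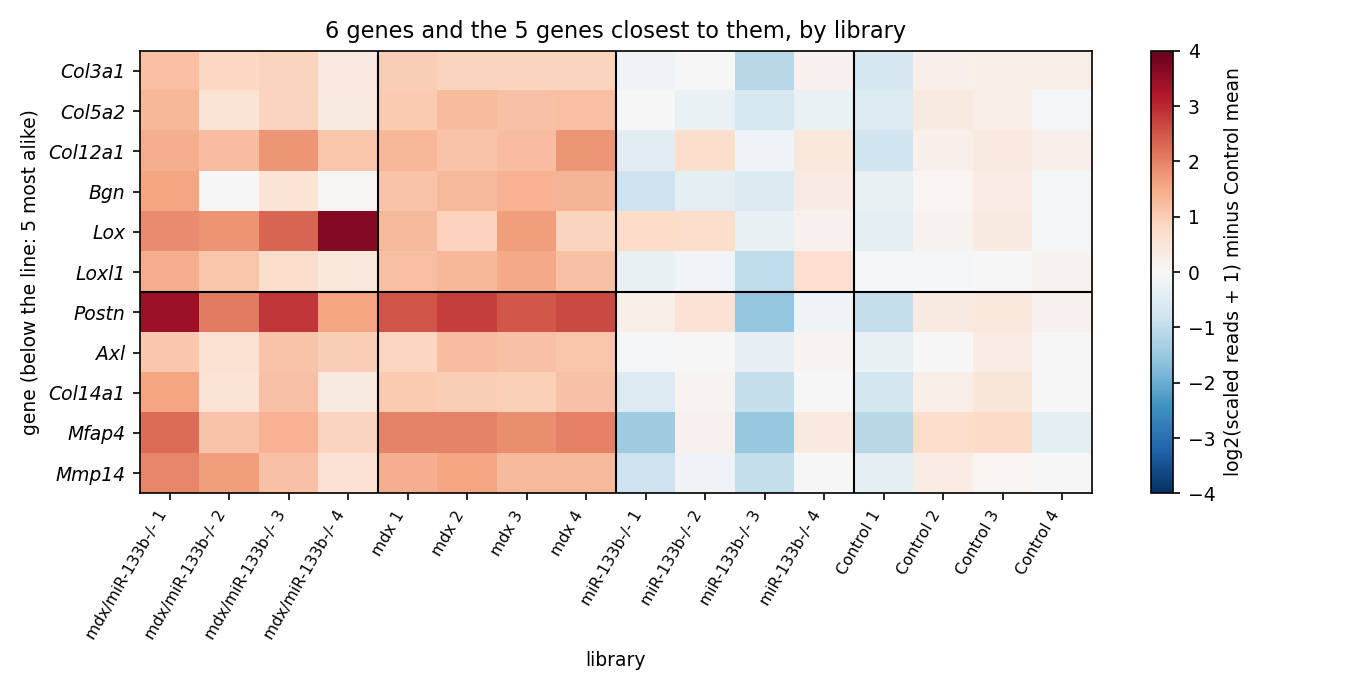
Log2 scaled reads of the 6 genes and of the 5 genes most like their mean profile, relative to each gene's Control mean, across the 16 libraries in group order. The mdx and mdx/miR-133b-/- libraries are above the Control mean in every cell, by little for Bgn in mdx/miR-133b-/- 2 and 4, and Lox in mdx/miR-133b-/- 4 departs from its neighbours.

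The genes whose levels over the 16 libraries were most like the mean profile of the 6 were Postn (r = 0.98), Axl (0.97), Col14a1 (0.96), Mfap4 (0.96) and Mmp14 (0.95). After group means were subtracted, r was 0.87, 0.76, 0.94, 0.90 and 0.75 for these genes. Postn encodes periostin, a matrix protein that binds collagen, Axl a receptor tyrosine kinase, Col14a1 a fibril-associated collagen, Mfap4 a microfibril-associated protein and Mmp14 a membrane-bound protease that cleaves collagen.

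Other genes of the collagen network were read from 11 lists, which held 23 listed genes beside the 6. Of these, 22 rose and 0 fell in mdx relative to Control muscle, with a median difference of 1.41, beside 44.5% called higher and a median of 0.44 over all listed genes. The 831 genes include 180 called lower. Genes of the lists that are not in the selected table could not be counted, so these counts do not describe the lists as a whole. The exception was Itga10, a collagen-binding integrin, at 0.26 (adjusted p = 0.478). Among collagens, Col8a1, a short-chain collagen, averaged 548 ± 179 scaled reads in mdx and 124 ± 24.3 in Control muscle (SD, n = 4 each), a difference of 2.09. Col5a3, another type V chain, averaged 666 ± 65.4 in mdx and 332 ± 59.4 in Control muscle, and Col14a1 774 ± 49.7 in mdx and 394 ± 127 in Control muscle. Each of these 3 collagens rose with an adjusted p of at most 0.0064. Lum, which encodes lumican, a proteoglycan that binds collagen as biglycan does, averaged 1282 ± 115 in mdx and 571 ± 182 in Control muscle (adjusted p = 0.000382).

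Of 24 genes of collagen synthesis and processing 1 was listed, Fkbp10, an endoplasmic reticulum chaperone of collagen. It was higher in mdx than in Control muscle by 0.93 (adjusted p = 0.00347), and Mfap4, the only listed gene of 16 for elastic fibres, by 1.96 (adjusted p = 0.00118). Of 3 listed collagen receptors 2 rose. One of them, Lair1, an inhibitory collagen receptor of immune cells, averaged 73.3 ± 14.7 in mdx and 15.2 ± 5.95 in Control muscle, a difference of 2.26 (adjusted p = 0.000702). All 6 listed genes of the collagen degradation list rose, which beside proteases includes Timp1, an inhibitor of metalloproteinases. Among the 6 were Mmp14, with a difference of 1.41 (adjusted p = 0.000334), and Ctsk, the collagen-cleaving cathepsin K, with 1.58 (adjusted p = 0.000501). All 6 listed matricellular genes rose, with Postn at 4978 ± 429 in mdx and 872 ± 312 in Control muscle, a difference of 2.60 (adjusted p = 6.82e-05). Thbs4, which encodes thrombospondin 4, averaged 1410.0 ± 204 in mdx and 322 ± 121 in Control muscle, a difference of 2.19 (adjusted p = 4.97e-05). No gene of the TGF-beta signalling list was among the 831, and the crosslinking list held Lox and Loxl1 alone.

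In mdx/miR-133b-/- muscle 20 of the 23 genes rose relative to Control, with a median of 1.22, beside 54.3% called higher and a median of 0.73 over all listed genes. The limit of the selected table applies here as well. Between mdx/miR-133b-/- and mdx muscle 0 of the 23 were called in either direction, with a median of -0.12, beside 7.46% called higher, 12.0% called lower and a median of -0.04 over all listed genes. Between miR-133b-/- and Control muscle, and in the interaction, 0 were called, with medians of -0.32 and 0.08.

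Most listed markers of fibroblasts, macrophages and regenerating fibres rose in mdx relative to Control muscle, as the 6 genes did. The endothelial marker and 2 of 4 fast fibre markers fell. In that comparison 370 of the 831 listed genes were called higher and 180 lower, and every marker comes from the same selected table. The summed scaled reads of the 4 listed fibroblast and fibro-adipogenic progenitor markers of 10 (Pdgfra, Lum, Fap and Ptn) ranged over 2587 to 3689 in mdx/miR-133b-/-, 2626 to 3303 in mdx, 1053 to 1778 in miR-133b-/- and 1105 to 1914 in Control libraries. All 4 rose in mdx relative to Control, and 0 were called between mdx/miR-133b-/- and mdx muscle. Over all listed genes 7.46% were called higher and 12.0% lower between mdx/miR-133b-/- and mdx muscle. Lum and Fap stand in the collagen network lists as well, and so does Thbs4. Of 12 macrophage markers 8 were listed, summing to 3297 to 10297 in mdx/miR-133b-/-, 5275 to 8116 in mdx, 880 to 2334 in miR-133b-/- and 1370 to 1835 in Control libraries, and 7 rose in mdx. Of 8 regenerating fibre markers 6 were listed, with the sums given above, and all 6 rose in mdx.

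The only listed tenocyte marker of 7, Thbs4, had 2525 scaled reads in mdx/miR-133b-/- 1 and 718 to 755 in the other 3 libraries of that group, against 1259 to 1710.3 in mdx, 305 to 455 in miR-133b-/- and 220 to 485 in Control libraries. That library was also the highest of its group for 4 of the 6 genes. The only listed endothelial marker of 7, Flt1, had 854 to 1650 in mdx/miR-133b-/-, 856 to 1301 in mdx, 2077 to 2263 in miR-133b-/- and 1687 to 2039 in Control libraries, and fell in mdx (-0.75) and in mdx/miR-133b-/- (-0.61) relative to Control muscle. Of 6 smooth muscle markers 0 were listed. The 4 listed fast fibre markers of 8 (Myh4, Ckm, Actn3 and Pvalb) summed to 256312 to 320334 in mdx/miR-133b-/-, 375355 to 552424 in mdx, 314869 to 730433 in miR-133b-/- and 592292 to 730110 in Control libraries. Relative to Control muscle 2 of these 4 fell in mdx and 4 in mdx/miR-133b-/- muscle, and 3 fell between mdx/miR-133b-/- and mdx muscle. Over the 831 listed genes, 180, 307 and 100 were called lower in these comparisons, in that order. No listed marker was at 0 in any library. The part of cell composition in the differences of the 6 genes was not tested.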

How the data were processed

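RNA from whole tibialis anterior of 16 mouse libraries (4 groups of 4) was sequenced. Per the submitters' processing notes, the tools were HISAT2 and HTSeq with genome build GRCm38; the sources used here give no versions, strand setting or rule for listing genes. The authors deposited 1 table of 831 genes whose values are a signal: read counts multiplied by 1 factor per library, as the values themselves show (every value came out whole within 0.001 read); reads per library, the chi-square and limma-voom rest on the reads recovered in this way. Identifiers were matched to symbols for all 831 genes. From these values, log2(value + 1) was fitted in limma 3.58.1 (R 4.3.3) with 1 mean per group over all 16 libraries, moderated variances with a trend, and Benjamini-Hochberg adjusted p over the 831 genes, called under 0.05. Because the values were scaled, no model for raw counts was the main test. The fit was tested on simulated data. The pseudocount of 1 understates changes of low genes. Tables and sequence searches used Python 3.11.15, pandas 2.3.3 and numpy 2.4.6. The 6 genes, the lists and the markers were chosen with earlier results of these data known. All 6 genes are named in every comparison. Of each pathway list the called gene with the smallest p between mdx and Control is named (2 where 5 or more are called), as are the 5 genes most like the mean profile. Alternatives were other pseudocounts, filters, scalings and variance models, a replicate block, each library left out, and groups by the description field. A GC and length correction was another, and it also gave every library the same mean over the listed genes.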

Additional observations from a re-analysis of the deposited data

Results flagged for a closer look

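Of 24 sets of 4 values (6 genes in 4 groups), 3 had 1 library whose gap to its nearest neighbour, as a share of the whole range, exceeded Dixon's critical value at 95%, and chance gives about 1 in 20 such sets. Lox had 2937 scaled reads in mdx/miR-133b-/- 4, against 792 to 1142 in the other 3 libraries of that group. Col3a1 had 31996 scaled reads in mdx 1, against 29863 to 30084 in the other mdx libraries, all within a narrow range. Col3a1 had 10224.5 scaled reads in Control 1, the lowest Control library for all 6 genes, against 18458 to 18910.4 in the others.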

How the results depend on the processing

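The number of the 6 genes called between mdx and Control muscle stayed at 6 in every alternative except grouping by the description field, where 0 were called, and removal of the GC and length trend, where it was 4, an alternative chosen after seeing the data. Between mdx/miR-133b-/- and Control muscle it was 5, against 2 with relative log expression scaling, 2 with the trend removed, 0 with description grouping and 5 to 6 with 1 library left out. Between mdx/miR-133b-/- and mdx muscle it was 1, against 2 with relative log expression scaling, 0 with the trend removed, 0 with description grouping and 0 to 2 with 1 library left out. It was 0 in all alternatives between miR-133b-/- and Control muscle and in the interaction. With description grouping the sign turned for Col3a1 (-0.12), Col5a2 (-0.044) and Loxl1 (-0.27) between mdx and Control, and for Col5a2 (-0.17) between mdx/miR-133b-/- and Control, all of them called with the titles. Of the differences not called, those of Col3a1 (0.19), Loxl1 (0.30) and Bgn (0.0005) between mdx/miR-133b-/- and mdx turned sign too. With this grouping 0 of the 831 genes were called in any comparison. The grouping followed the replicate number, so each group by description held 1 library of each of the 4 groups by title. It therefore could not show differences between the groups by title, and its 0 calls do not bear on their size. Of 804 values of single genes under an alternative, 748 kept both their direction and their side of the threshold. The sign turned in 32, of which 28 were values that had not been called and 12 came from description grouping.

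Over all listed genes, calls between mdx and Control were 370 higher and 180 lower, against 260 and 270 with relative log expression scaling and 215 and 304 with the trend removed. Between mdx/miR-133b-/- and mdx, 162 genes were called, against 47 with the trend removed and 49 to 197 with 1 library left out (49 without mdx/miR-133b-/- 4). For the interaction 8 were called, against 4 at a minimum mean of 100, 14 with relative log expression scaling, 5 with the trend removed and 7 to 110 with 1 library left out (110 without miR-133b-/- 2). The replicate numbers did not pair the libraries: same-numbered libraries correlated at -0.28 to 0.15 in their deviations, and 2 of 16 correlated best with their own number. With the replicate block the calls among the 6 genes were 6, 5 and 1 in the 3 comparisons above and 0 in the other 2, and 120 of all listed genes were called between mdx/miR-133b-/- and mdx. The planned models for raw counts other than limma-voom were not run, since a separate check that starts from each library's lowest values did not accept the recovered reads, and the planned protein comparisons were not run. No depth beyond the listed genes is known, and 4 libraries per group limit what could be called.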
